A study of Mus musculus with 8 samples.

Results

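The miR-30 family was represented by 21 distinct read sequences annotated as a mature miR-30a, miR-30b, miR-30c, miR-30d or miR-30e, of 652 mature miRNA sequences and 11568 distinct sequences in all. Members were chosen by their annotation, and the family was singled out because the arms of miR-30a differed after oxidation. The values of miR-30a in the oxidized methyltransferase libraries are therefore given as a description, with no test. Of the 21 members, 7 came from the 5p arm and 14 from the 3p arm of the hairpin, and no miR-30d-3p sequence was listed.

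Total RNA came from a mouse insulinoma line, MIN6B1 by the cell line label and MIN6 by the sample titles, that serves as a model of the pancreatic beta cell, transiently transfected with 1 of 2 plasmids. The control groups received a control plasmid and the methyltransferase groups a plasmid for HENMT1ΔC-T6B, in which a 3′ end methyltransferase is joined to a peptide that binds Argonaute. The promoter of the plasmid is not given in the sources used here. RNA of each kind was either treated with sodium periodate (NaIO4), here called oxidized, or left non-oxidized, which made 4 groups of 2 small RNA libraries. The labels do not say whether replicates were separate cultures, so p-values measure only the spread between these libraries, which may be technical.

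A microRNA is cut from a hairpin as a duplex, and 1 strand is kept by an Argonaute protein while the other is usually degraded. The strand from the left side of the hairpin is called 5p and the one from the right side 3p, and bases 2 to 8 of the strand, the seed, pair with target RNAs. The miR-30 family is known in many tissues, where its 5p strands share a seed, and members of the family have been studied in the differentiation of pancreatic islet cells. Periodate attacks RNA with a free 3′ end and keeps it out of the library, whereas a methyl group on the 2′ hydroxyl of the last nucleotide protects it. A sequence that persists in oxidized methyltransferase RNA but not in oxidized control RNA is read in this method as one with a protected end.

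The mature sequences show why the arms are compared as 2 groups. In the lines that follow, written 5′ to 3′ with the seed in capitals, the letters of miR-30a, miR-30c and miR-30e are those of RefSeq (GRCm38.p6).
mmu-miR-30a-5p: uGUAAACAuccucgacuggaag
mmu-miR-30e-5p: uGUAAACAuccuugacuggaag
mmu-miR-30c-5p: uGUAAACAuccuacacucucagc
mmu-miR-30a-3p: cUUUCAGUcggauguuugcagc
mmu-miR-30e-3p: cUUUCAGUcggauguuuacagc
mmu-miR-30c-2-3p: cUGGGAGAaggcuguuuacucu
mmu-miR-30c-1-3p: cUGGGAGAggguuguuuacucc
The sequences of miR-30b and miR-30d are, in DNA letters, the most abundant reads with a mature annotation of each arm in the deposited table.
mmu-miR-30b-5p: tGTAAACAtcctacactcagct
mmu-miR-30d-5p: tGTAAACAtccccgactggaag
mmu-miR-30b-3p: cTGGGATGtggatgtttacgtc

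All 5p strands shared the seed GUAAACA. The 3p strands of miR-30a and miR-30e shared UUUCAGU and those of miR-30c-1 and miR-30c-2 shared UGGGAGA. In GRCm38.p6, miR-30a-5p lies at chr1:23272274-23272295 and miR-30a-3p at chr1:23272315-23272336, both on the plus strand, and no other annotated gene (GENCODE M21) overlaps that hairpin. The hairpin of miR-30c-2 lies at chr1:23291701-23291784 on the plus strand, in an exon of the long non-coding RNA gene Gm27028. On the minus strand of chromosome 4, miR-30e-3p lies at chr4:120772618-120772639 and miR-30e-5p at chr4:120772660-120772681, in an intron of Nfyc, a gene for a subunit of a transcription factor. The miR-30c-1 hairpin, at chr4:120769534-120769622, lies in an intron of the same gene. Reads of miR-30c-5p match both miR-30c hairpins and cannot be assigned to either.

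Several reads of one arm differed only at the 3′ end, and these forms carry much of what follows. Here the last base is in capitals.
miR-30a-3p, 22 nt: ctttcagtcggatgtttgcagC
miR-30a-3p, 21 nt: ctttcagtcggatgtttgcaG
miR-30e-3p, 22 nt: ctttcagtcggatgtttacagC
miR-30e-3p, 21 nt: ctttcagtcggatgtttacaG
miR-30e-5p, 22 nt: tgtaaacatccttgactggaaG
miR-30e-5p, 23 nt: tgtaaacatccttgactggaagC
miR-30e-5p, 24 nt: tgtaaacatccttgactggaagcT
The 23 and 24 nt forms of the 5p arm continue into the hairpin and carried a precursor annotation only, so that they are no members. In all, 9 sequences carried a precursor annotation only, 8 of the 5p and 1 of the 3p arm. A further 21 sequences without annotation equalled a family sequence plus 1 to 3 added 3′ nucleotides.

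Listed counts ranged from 295094 to 438363 in oxidized control RNA and from 2446036 to 6641250 in the other groups. No sequence is listed with under 2 counts in either library of oxidized methyltransferase RNA or under 10 in both together, so forms lost on oxidation below that level are not seen, and all totals are totals of listed sequences. Of the 21 members, 20 passed the filter on low counts. The exception was a 22 nt miR-30a-3p form without a genomic match, with counts of 4 and 0 in the non-oxidized controls, 3 and 2 in non-oxidized methyltransferase RNA, 5 and 8 in oxidized methyltransferase RNA and 0 in both oxidized control libraries. The beta cell miRNA miR-375-3p had 567527 and 559007 counts with the control plasmid before oxidation. The neuronal miR-124-3p had 515 and 232 counts there and the hepatocyte miR-122-5p 463 and 183, while no sequence of the 5 muscle and blood cell markers was listed.

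With the methyltransferase, oxidation left the 22 nt 3p strands of miR-30a and miR-30e near their non-oxidized level, whereas the 5p strands of the same hairpins fell to a small part of it. Summed over every sequence of the hairpins, the 5p arms of the family held 2.04% ± 0.220 (SD, n = 2) of the counts in the non-oxidized control libraries, 1.11% ± 0.0178 in non-oxidized methyltransferase RNA and 0.0832% ± 0.0143 in oxidized methyltransferase RNA. The 3p arms held 0.0913% ± 0.00455, 0.0896% ± 0.00314 and 0.0978% ± 0.0105 of counts in the same 3 groups. In oxidized control RNA the 5p arms held 0.00789% ± 0.000829 and the 3p arms 0.000284% ± 7.83e-05. Thus the 5p arms had the larger share in non-oxidized RNA, and the 2 arms had nearly equal shares in oxidized methyltransferase RNA.

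**Figure D1:**
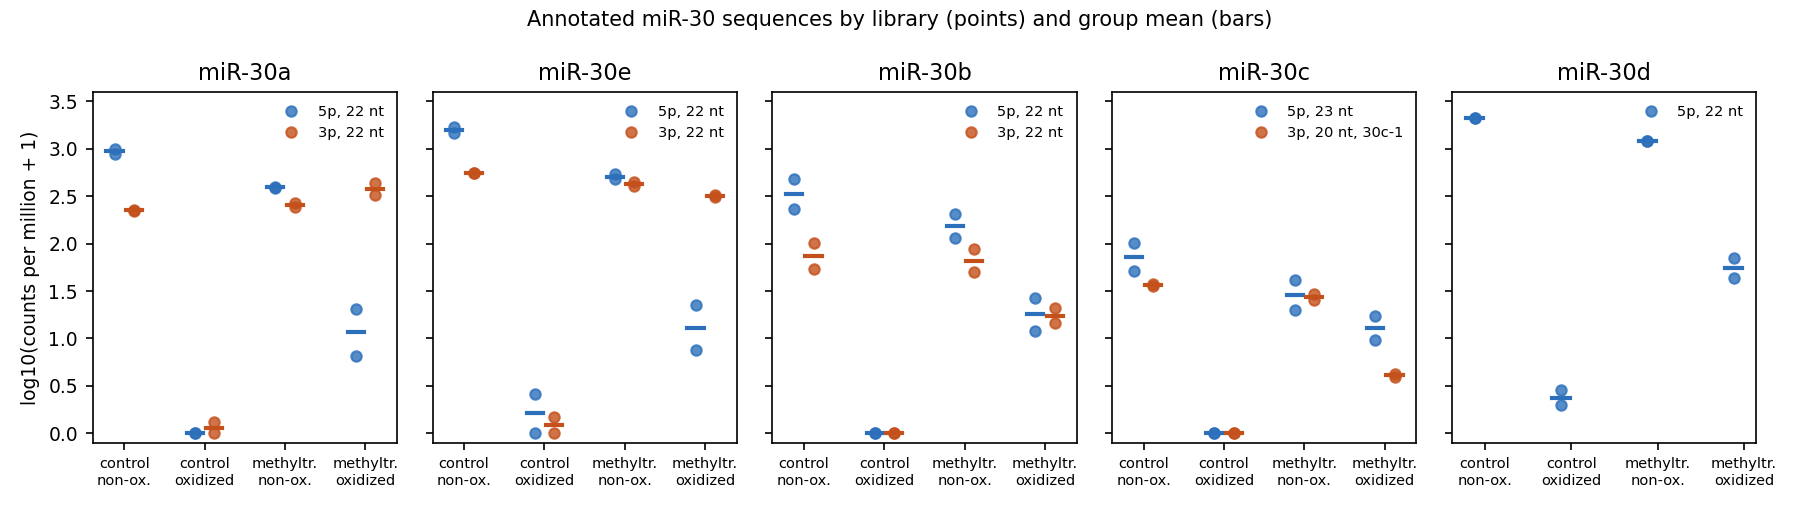
Level of a sequence with a mature annotation from each arm in the 8 libraries, as log10(CPM + 1), by group. CPM are counts scaled to a common library size with TMM factors. For miR-30c-3p, whose annotated 22 nt strands were not listed, the 20 nt miR-30c-1-3p form is shown. Points are libraries and short bars are means of the log values of 2 libraries. The 3p sequences of miR-30a and miR-30e lie at a like height in the 3 groups other than oxidized control, whereas every 5p sequence is lower in oxidized than in non-oxidized methyltransferase RNA.

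The 22 nt miR-30a-5p, the annotated strand of that arm, had 1723 and 2030 counts in the non-oxidized controls, 754 and 829 in non-oxidized methyltransferase RNA, 53 and 12 in oxidized methyltransferase RNA and 0 in both oxidized control libraries. A count of 0 in those control libraries allows a share of up to 0.000684% and 0.00102% of listed counts. The 22 nt miR-30a-3p had 441 and 448 counts in the non-oxidized controls, 464 and 575 in non-oxidized methyltransferase RNA, 1164 and 698 in oxidized methyltransferase RNA and 1 and 0 in oxidized control RNA. The 5p strand was thus lower and the 3p strand higher in both oxidized than in both non-oxidized methyltransferase libraries. On the log2 scale of the edgeR fit the oxidation effect with the methyltransferase was -4.93 ± 0.594 (SE) for miR-30a-5p and 0.56 ± 0.393 (SE) for miR-30a-3p. These are the values that singled out the family.

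The 21 nt miR-30a-3p that lacks the last C did not stay. It had 365 and 432 counts in the non-oxidized controls, 286 and 361 in non-oxidized methyltransferase RNA, 2 and 12 in oxidized methyltransferase RNA and 0 in both oxidized control libraries, an oxidation effect of -5.69 ± 0.728 (SE) with the methyltransferase. A 21 nt form that starts 1 base later but ends in the same C as the annotated strand had 81 and 97 counts in non-oxidized and 201 and 152 in oxidized methyltransferase RNA. The 19 nt form, which also ends in a C, had 37 and 43 counts in non-oxidized and 13 and 5 in oxidized methyltransferase RNA, a log2 effect of -2.43. Both forms that keep the annotated 3′ end were therefore higher after oxidation. Both forms shortened at the 3′ end were lower, 1 ending in G and 1 in C.

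The strands of miR-30e, which were not named in the choice of the family, gave the same picture. The 22 nt miR-30e-5p had 2844 and 3458 counts in the non-oxidized controls, 5 and 0 in oxidized control RNA, 907 and 1153 in non-oxidized methyltransferase RNA and 58 and 14 in oxidized methyltransferase RNA. The 22 nt miR-30e-3p had 1086 and 1119, 0 and 1, 766 and 959, and 869 and 666 counts in the same order. With the methyltransferase, oxidation gave the 5p strand a log2 effect of -5.16 ± 0.684 (SE) (edgeR, Benjamini-Hochberg adjusted p = 0.000381). Without oxidized methyltransferase replicate 1 it was -6.30 and without replicate 2 it was -4.39. The 3p strand did not pass the test, with a log2 effect of -0.43 ± 0.399 (SE) (edgeR, adjusted p = 0.539), and its counts in the 2 groups overlapped. That sign turned under other scalings, to 0.45 with total counts, 0.35 with upper-quartile scaling and 0.96 with miRNA sequences fitted alone, where edgeR's adjusted p was 0.0338.

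Among the other 3p forms of miR-30e, those shortened at the 3′ end again fell. The 21 nt form had 491 and 550 counts in the non-oxidized controls, 0 in both oxidized control libraries, 260 and 386 in non-oxidized methyltransferase RNA and 8 and 6 in oxidized methyltransferase RNA. It fell by 5.75 ± 0.509 (SE) on the log2 scale, further than any other member (edgeR, adjusted p = 4.45e-05). The 20 nt form, which ends in A, went from 159 and 179 to 16 and 29 counts and fell by 3.11 (edgeR, adjusted p = 0.00371). The 21 nt form that starts 1 base later and ends in C had 8 and 12 counts before and 24 and 14 after oxidation, a log2 effect of 0.65 (edgeR, adjusted p = 0.553) that was 2.03 with miRNA sequences fitted alone (adjusted p = 0.0173).

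Of miR-30d, for which the 5p arm alone was listed, the 22 nt strand had 4156 and 4265 counts in the non-oxidized controls, 3 and 4 in oxidized control RNA, 2301 and 2614 in non-oxidized methyltransferase RNA and 189 and 92 in oxidized methyltransferase RNA. On oxidation with the methyltransferase it fell by 4.42 ± 0.436 (SE) on the log2 scale (edgeR, adjusted p = 4.92e-05). The shorter forms, both ending in A, had smaller effects. The 21 nt form went from 60 and 34 to 7 and 16 counts, a log2 effect of -2.25 (edgeR, adjusted p = 0.0398), a call lost in 8 of the 15 other settings tried. The 20 nt form went from 87 and 43 to 18 and 27 counts, a log2 effect of -1.78 (edgeR, adjusted p = 0.0708). The 20 nt form passed the threshold by the DESeq2 Wald test (-1.84, adjusted p = 0.0305) and without non-oxidized methyltransferase replicate 2 (-2.27, adjusted p = 0.0446).

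In miR-30b the 2 arms moved more alike. The 22 nt miR-30b-5p had 449 and 974 counts in the non-oxidized controls, 0 in both oxidized control libraries, 396 and 244 in non-oxidized methyltransferase RNA and 30 and 55 in oxidized methyltransferase RNA, and fell by 3.14 on the log2 scale (edgeR, adjusted p = 0.00495). Without oxidized methyltransferase replicate 1 the effect was -2.68 and edgeR's adjusted p 0.058. The 22 nt miR-30b-3p, which ends in C, went from 93 and 184 to 36 and 43 counts, a log2 effect of -2.02 (edgeR, adjusted p = 0.0322). That call was lost with total counts (adjusted p = 0.155) and in 5 other settings. The 21 nt form went from 19 and 19 to 9 and 9 counts, a log2 effect of -1.32 (edgeR, adjusted p = 0.201).

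In miR-30c the annotated 23 nt 5p strand kept more of its level than the 20 nt 3p strands. The 24 nt 5p form, described below, held 90.9% of that arm's counts in non-oxidized methyltransferase RNA. The 23 nt miR-30c-5p, whose annotated end is a C, went from 78 and 41 to 23 and 35 counts, a log2 effect of -1.28 (edgeR, adjusted p = 0.207). The 20 nt miR-30c-2-3p went from 48 and 74 to 9 and 3 counts and fell by 3.6 (edgeR, adjusted p = 0.00248). Left without oxidized methyltransferase replicate 1 or 2, that effect was -4.39 or -2.97. The 20 nt miR-30c-1-3p went from 55 and 52 to 8 and 7 counts and fell by 3.08 (edgeR, adjusted p = 0.00338). The 21 nt miR-30c-1-3p, 1 base longer and ending in C, went from 17 and 38 to 15 and 6 counts, a log2 effect of -1.65 (edgeR, adjusted p = 0.126). All 3 miR-30c-3p forms had 0 counts in both oxidized control libraries.

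Across the 15 tested members outside miR-30a, 9 fell on oxidation with the methyltransferase and 0 rose, where the fit called 11.2% of all 9851 tested sequences lower (41.4% of the 607 mature miRNA sequences) and 1.77% higher (0% of the mature ones). Of these 9 calls, 4 were among 6 5p and 5 among 9 3p sequences. The median log2 effect was -2.69 over the 5p and -2.02 over the 3p sequences, beside -1.39 over mature miRNA sequences and 0.09 over all tested sequences. Each arm thus held sequences that fell and sequences that did not pass the test. The 5 largest falls of the 20 tested members, miR-30a included, were those of the 22 nt 5p strands of miR-30a, miR-30d and miR-30e and the 21 nt 3p forms of miR-30a and miR-30e, each ending in G. Scaling by total counts moved the median of all sequences by 0.86 on the log2 scale and gave 1008 higher and 630 lower calls in place of 174 and 1100, and 7 of the 15 members were then called lower. With miRNA sequences fitted alone 7 were called lower and 2 higher, the 22 nt miR-30e-3p and its form that starts 1 base later.

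**Figure D2:**
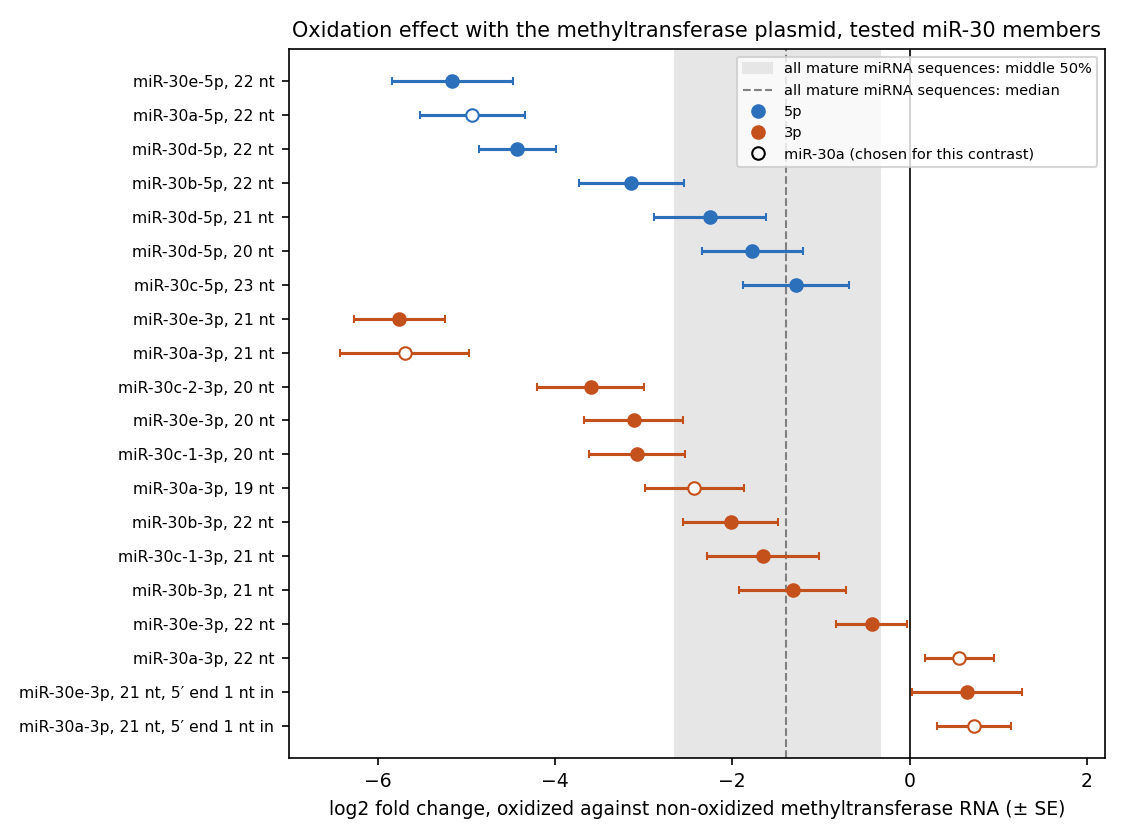
Log2 fold change between oxidized and non-oxidized methyltransferase RNA (x axis) for the 20 tested members, from the edgeR fit, with bars of 1 SE, sorted within the 5p (blue) and 3p (orange) arms. Open points are miR-30a, the grey band holds the middle 50% of the 607 mature miRNA sequences and the dashed line is their median of -1.39. The 5p strands of 22 nt lie left of the band, and the 3p forms spread from -5.75 to above 0.

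Counts of the 2 arms in one library give a ratio that no scaling changes. Ratios were formed for the 29 miRNAs with both arms listed, from annotated sequences summed per arm. The log2 ratio of 3p to 5p for miR-30a was -0.73 and -0.89 in non-oxidized control RNA, 0.21 and 0.38 in non-oxidized methyltransferase RNA, and 4.69 and 6.13 in oxidized methyltransferase RNA. Its change on oxidation with the methyltransferase, 5.12 ± 0.539 (SE), ranked first of the 29, which is a description since it chose the family. For miR-30e the log2 ratio was -0.65 and -0.73, then 0.40 and 0.41, then 3.97 and 5.62, and the groups did not overlap. Its change of 4.39 ± 0.568 (SE) ranked second (limma, adjusted p = 0.000214 over the 29 miRNAs), and was 5.22 or 3.57 without oxidized methyltransferase replicate 1 or 2.

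For miR-30b the log2 ratio was -1.83 and -2.08 in non-oxidized control RNA, -1.82 and -0.26 in non-oxidized methyltransferase RNA and 0.58 and -0.08 in oxidized methyltransferase RNA. The change of 1.29 missed the threshold (limma, adjusted p = 0.0752) and passed it without non-oxidized methyltransferase replicate 2 (2.07, adjusted p = 0.0339). For miR-30c the log2 ratio was 1.03 and 0.03, then 0.62 and 1.99, then 0.47 and -1.11, a change of -1.62 in the other direction (limma, adjusted p = 0.0648). With the most abundant sequence of each arm alone the miR-30c change was -2.40 (limma, adjusted p = 0.018). With every sequence of the hairpins it was -0.505 (limma, adjusted p = 0.438). Of the 29 ratios, 27.6% were called higher and 20.7% lower on oxidation. Over the 25 ratios outside the family the changes ran from -3.61 to 3.99 with a median of 0.36, so both miR-30a and miR-30e lay above every one of these.

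**Figure D3:**
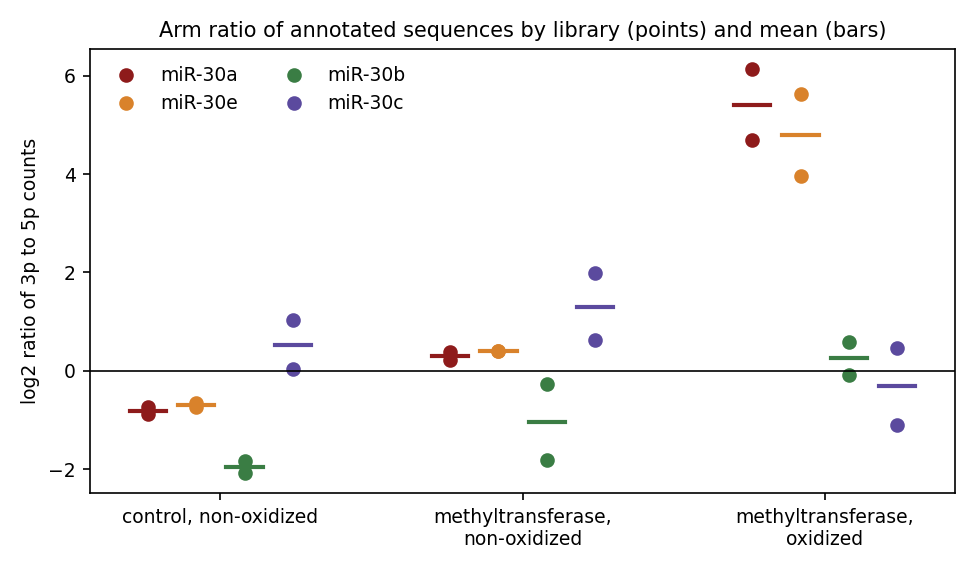
Log2 ratio of 3p to 5p counts (y axis) of miR-30a, miR-30e, miR-30b and miR-30c in the 6 libraries other than oxidized control RNA. Points are libraries and bars are means of 2. The ratios of miR-30a and miR-30e rise from below 0.5 to above 3.9 with oxidation, and those of miR-30b and miR-30c stay between -2.1 and 2.

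Most 5p reads were longer than the annotated strand. The 24 nt form made up 81.3% ± 1.36 (SD, n = 2) of miR-30a-5p counts, 75% ± 1.38 of miR-30d-5p counts and 88.7% ± 0.637 of miR-30e-5p counts in the non-oxidized controls. In oxidized methyltransferase RNA the shares were 67.0% ± 16.6, 64.1% ± 7.49 and 74.9% ± 4.30, lower in both libraries of each miRNA than in both non-oxidized methyltransferase libraries. The 23 nt form rose in share between the same groups, from 3.61% ± 0.759 to 11.9% ± 3.32 for miR-30a-5p, from 4.81% ± 1.17 to 13.1% ± 1.29 for miR-30d-5p and from 1.92% ± 0.532 to 9.75% ± 4.17 for miR-30e-5p. These shares carry no test.

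**Figure D4:**
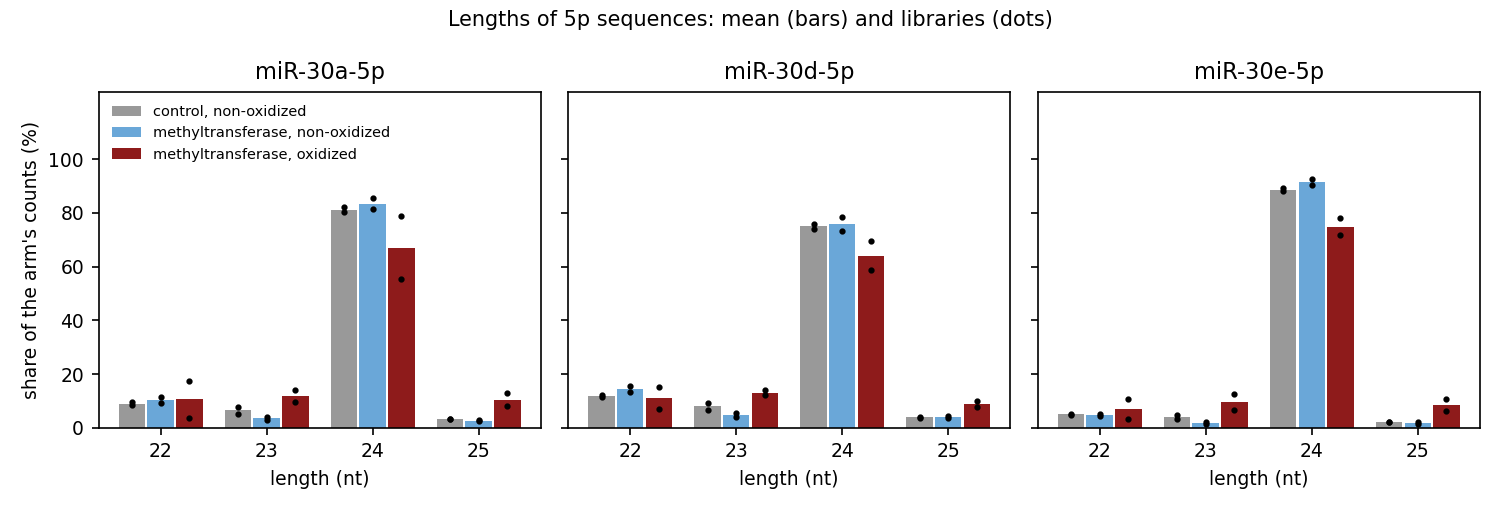
Share of the listed counts of an arm (y axis, percent) by read length (x axis, nucleotides) for miR-30a-5p, miR-30d-5p and miR-30e-5p, with every sequence of the hairpin arm included. Bars are means of 2 libraries and dots are libraries. The 24 nt form holds most counts in all groups, and the 23 and 25 nt forms hold larger shares in oxidized methyltransferase RNA.

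The 24 nt miR-30e-5p, the most abundant sequence of the family, had 53634 and 58444 counts in the non-oxidized controls, 7 and 8 in oxidized control RNA, 15658 and 23402 in non-oxidized methyltransferase RNA and 383 and 348 in oxidized methyltransferase RNA. On oxidation with the methyltransferase it fell by 5.98 ± 0.440 (SE) on the log2 scale (edgeR, adjusted p = 1.22e-05). The 24 nt miR-30d-5p went from 10819 and 15193 to 722 and 881 counts and fell by 4.24 (edgeR, adjusted p = 0.000133). The 24 nt miR-30c-5p went from 696 and 522 to 112 and 130 counts and fell by 2.58 (edgeR, adjusted p = 0.00462). The 24 nt miR-30a-5p went from 5292 and 7674 to 160 and 250 counts, a log2 effect of -5.18. In all 4 the oxidized libraries lay below the non-oxidized ones. Adding every sequence of the hairpins to the arms left the change of the miR-30e arm ratio at 4.55 and that of miR-30a at 4.68. The change of miR-30b stayed at 1.29, and that of miR-30c shrank from -1.62 to -0.505 (limma, adjusted p = 0.438).

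Forms that differ by 1 nucleotide at the 3′ end, compared within each library, show how strongly the end goes with the reads left after oxidation. The log2 ratio of 22 to 21 nt miR-30a-3p was 0.70 and 0.67 in non-oxidized and 8.86 and 5.80 in oxidized methyltransferase RNA. For miR-30e-3p it was 1.56 and 1.31 in non-oxidized and 6.68 and 6.68 in oxidized methyltransferase RNA. In both miRNAs the longer form adds a C to an end in G. In oxidized libraries the 21 nt forms had 2 to 12 counts, which limits the precision of those ratios.

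Of 5 pairs outside miR-30a whose longer form adds a C, the ratio was higher in both oxidized than in both non-oxidized libraries in 4, beside 48.1% of 52 such pairs outside the family. Their changes on the log2 scale were 5.24 in miR-30e-3p, 1.78 in miR-30e-5p, 1.51 in miR-30d-5p and 1.39 in miR-30c-1-3p. The exception was miR-30b-3p, at -0.68. There the C is added to an end in T, as it also is in the miR-30c-1-3p pair, whose ratio was higher. The changes of miR-30a, given as a description, were 6.65 in the 3p and 1.62 in the 5p arm. In the 5p arm a further T, which makes the 24 nt form from the 23 nt form, went with a lower ratio in all 3 pairs outside miR-30a, beside 42.5% of 214 added-T pairs outside the family. The changes were -1.31 in miR-30d, -2.36 in miR-30e and -1.33 in miR-30c, and -1.67 in miR-30a as a description. An added G went with a lower ratio in miR-30d-5p, with a change of -2.17, and in miR-30e-3p, with a change of -2.48. A lower ratio was also the most frequent outcome of the 99 added-G pairs outside the family, at 55.6%. The pairs are not independent, because some share a read. The 23 nt 5p forms of miR-30d and miR-30e are the longer form of an added-C and the shorter form of an added-T pair. Likewise, the 22 nt miR-30d-5p and 21 nt miR-30e-3p are the longer form of an added-G and the shorter form of an added-C pair.

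**Figure D5:**
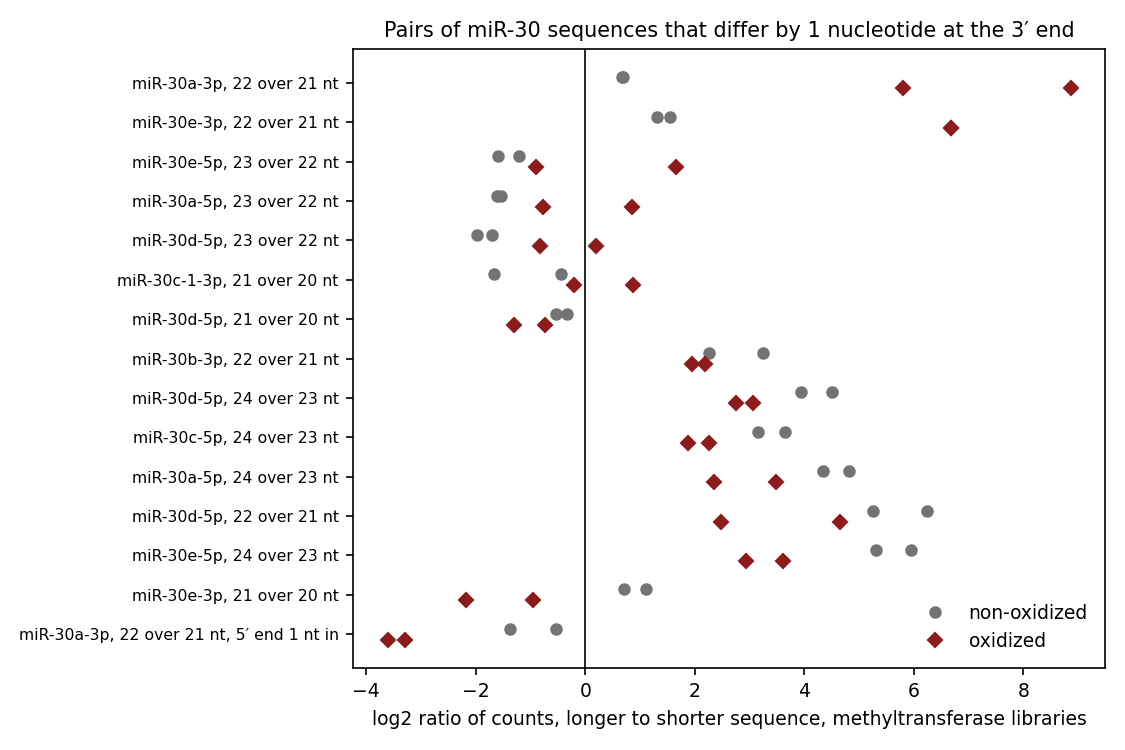
Log2 ratio of counts of the longer to the shorter form (x axis) for the 15 miR-30 pairs that differ by 1 nucleotide at the 3′ end. Circles are the 2 non-oxidized and diamonds the 2 oxidized methyltransferase libraries. The 22 over 21 nt pairs of miR-30a-3p and miR-30e-3p with the annotated 5′ end stand at the top, with changes of 6.65 and 5.24.

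Mature miRNA sequences outside the family also differed by their last base. Of 137 that end in G, 60.6% were called lower on oxidation with the methyltransferase, with a median log2 effect of -2.46. The medians were -1.43 for 82 ending in C, -1.30 for 113 ending in A and -0.92 for 255 ending in T, and 39%, 38.1% and 31.8% were called lower. These shares describe sequences of the same libraries, which are not replicates.

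Among unannotated forms with added 3′ nucleotides, 17 of the 21 were tested. The 22 nt miR-30a-3p that ends in T in place of C had 280 and 336 counts in non-oxidized and 362 and 234 in oxidized methyltransferase RNA, a log2 effect of -0.32. The matching miR-30e-3p form went from 543 and 640 to 391 and 210 counts, a log2 effect of -1.27 (edgeR, adjusted p = 0.0599). These T-ended forms thus had smaller log2 effects than the 21 nt forms ending in G that they extend. Of 4 extended 3p forms tested outside miR-30a, 2 fell, both 23 nt miR-30e-3p reads ending in T, with log2 effects of -2.22 and -1.74 (edgeR, adjusted p = 0.0337 and 0.0242). The share called lower was 11.2% over all tested sequences and 39.2% over the 864 tested with a mature or precursor miRNA annotation. Of 8 extended 5p forms outside miR-30a, 6 fell on oxidation. The forms that did not were 23 nt reads with an A after the annotated end, which went from 59 and 51 to 57 and 38 counts in miR-30d-5p and from 7 and 11 to 6 and 12 counts in miR-30e-5p (log2 effects of -0.49 and -0.20, edgeR adjusted p = 0.556 and 0.892). The miR-30e form lies near the listing minimum of 10 counts, below which a fall cannot be seen.

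With the control plasmid, oxidation removed nearly every read of the family. All 20 tested members fell, miR-30a included, where 46.4% of all tested sequences and 92.8% of mature ones were called lower by edgeR at an adjusted p under 0.05. The 22 nt miR-30d-5p went from 4156 and 4265 to 3 and 4 counts, a log2 effect of -10.54 ± 0.599 (SE) (edgeR, adjusted p = 2.78e-07). Under TMM scaling the 22 nt miR-30a-5p was at least 791-fold and the 21 nt miR-30e-3p at least 219-fold lower. These bounds set oxidized control RNA to 3 counts per library. Total-count scaling moved the log2 values of this contrast by a median of 4.3, which makes both bounds far smaller. Both arms were lost, and no form of either had more than 5 counts among the members in any oxidized control library.

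In oxidized RNA, every one of the 15 tested members outside miR-30a was higher with the methyltransferase than with the control plasmid. The background is 42.3% of all tested and 85.3% of mature sequences, and the listing itself asks for counts in the oxidized methyltransferase libraries, so this count is partly set by the listing. The 22 nt miR-30d-5p was 39.7-fold higher (log2 5.31 ± 0.524 SE, edgeR, adjusted p = 8.69e-06). In log2 this was 2.34 with total counts (adjusted p = 0.0037), 1.19 with miRNA sequences fitted alone, where the call was lost (adjusted p = 0.0887), and 6.08 without oxidized methyltransferase replicate 2. The 22 nt miR-30e-5p was 14.5-fold higher (log2 3.86 ± 0.821 SE, edgeR, adjusted p = 0.002). In log2 this was 2.72 and 4.88 without oxidized methyltransferase replicates 1 and 2 and 0.92 with total counts, where the call was lost (adjusted p = 0.359). Oxidized control replicate 1 held all 5 of its oxidized control counts. Under TMM scaling the 22 nt miR-30b-5p was at least 15.4-fold and the 22 nt miR-30b-3p at least 14-fold higher. Total-count scaling moved the log2 values of this contrast by a median of -2.99, which leaves only a small part of both bounds. The 22 nt miR-30e-3p had 869 and 666 counts against 0 and 1. With miRNA sequences fitted alone, 2 of the 15 were called higher, and the log2 value of miR-30e-5p turned to -0.30.

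The oxidation effect differed between the plasmids in the same way. By the interaction term, it was less negative with the methyltransferase in 15 of 15 tested members outside miR-30a, beside 39.6% of all tested and 85.7% of mature sequences. This count, too, is partly set by the listing, which asks for counts in the oxidized methyltransferase libraries. With total counts as library sizes 9 of the 15 were called, and with miRNA sequences fitted alone 2.

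In non-oxidized RNA no member was called between the plasmids, and neither was any of the 9851 sequences (0% in each direction, edgeR). At an unadjusted p under 0.05, edgeR placed 466 sequences (4.73%) lower and 392 (3.98%) higher with the methyltransferase. Among the members, 5 of 7 5p and 1 of 13 3p sequences reached that unadjusted level, all lower, with adjusted p of 0.356 or more. Of the 607 mature miRNA sequences, 139 reached it in either direction. The median log2 difference was -1.33 over the 5p and -0.43 over the 3p members, beside -0.63 over mature miRNA sequences. The 20 nt miR-30d-5p, with 190 and 280 counts against 87 and 43, had the smallest p (log2 -1.84 ± 0.548 SE), and by the DESeq2 Wald test its adjusted p was 0.0496. The arm ratios were higher with the methyltransferase by 1.11 in miR-30a, 0.91 in miR-30b, 0.77 in miR-30c and 1.10 in miR-30e, none past the threshold (limma, adjusted p = 0.265, 0.379, 0.508 and 0.268), and 0 of the 29 ratios were called (4 at an unadjusted p under 0.05).

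Outside the family, miR-384-5p carries the same seed. On oxidation with the methyltransferase its 23 nt form fell by 1.65 ± 0.438 (SE) on the log2 scale (edgeR, adjusted p = 0.0323). That was less than the 22 nt 5p strands of miR-30a, miR-30b, miR-30d and miR-30e, but more than the 23 nt miR-30c-5p, at -1.28. A 22 nt miR-384-5p form, which ends in G, went from 23.6 and 18.3 CPM in non-oxidized to 1.49 and 4.17 in oxidized methyltransferase RNA. The smaller fall of miR-384-5p thus holds for its 23 nt form only. These differences between sequences were not tested. The arm ratio of miR-384 changed by 0.65 (limma, adjusted p = 0.246). Nearest to the profile of miR-30a-5p over the 8 libraries, by Euclidean distance between log2 CPM among 363 mature sequences outside the family, were miR-15b-5p (1.14), miR-151-5p (1.25) and miR-671-5p (1.27), against a median distance of 5.04. For miR-30a-3p they were let-7b-5p (0.671), miR-483-5p (0.769) and let-7c-5p (0.884), against a median of 5.28. Each of these names stands for 1 sequence, not for all forms of that miRNA. The 22 nt let-7b-5p sequence had 946 and 1020 counts in non-oxidized and 1697 and 981 in oxidized methyltransferase RNA. The 21 nt miR-15b-5p sequence had 965 and 664 and then 32 and 21.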

How the data were processed

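The libraries were prepared from total RNA by the QIAseq miRNA protocol, per the labels. Aligner, genome build, trimming and use of molecular identifiers are not given in the sources used here. The deposited table gives, per the file headers, a count of each distinct sequence in each of 8 libraries, its annotation hit and its number of genomic matches. The authors' normalized signal, their log2 values, their fold scores and their deposited p-values were read for format and not used in the results.

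Merging its 12608 lines gave 11568 distinct sequences. The quasi-likelihood test of edgeR 4.0.16 (R 4.3.3) was run on the counts of all 8 libraries in 4 groups, without a replicate block, after filterByExpr and with TMM factors. It tested 9851 sequences, and p-values were Benjamini-Hochberg adjusted over all of them, with a threshold of 0.05. A log2 effect is that of this fit. Where a group had 3 counts or fewer in each library, a fold is given only as a bound, which holds for TMM scaling. Log2 arm ratios, with 0.5 added to each count, were fitted with limma 3.58.1 over 29 miRNAs with a mean of at least 10 counts per arm in 6 libraries. DESeq2 1.42.0 was an alternative. The scripts were tested on simulated counts.

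The sequences named are all family members, the longer forms of the same hairpins, miR-384 as the same-seed miRNA, and the 3 nearest profiles with a mean of at least 50 counts. Members and lists were chosen with earlier results of these data known. A count of 0 allows 3 counts of the total, a limit that covers counting error alone, because sequenced reads are not separate molecules.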

Additional observations from a re-analysis of the deposited data

Results flagged for a closer look

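The oxidation effect differed between the 2 plasmids, by the edgeR interaction term, in 15 members outside miR-30a. In miR-30d-5p of 22 nt the difference was 6.11 on the log2 scale (adjusted p = 2.16e-05), 2.62 with total counts (adjusted p = 0.00885) and 1.29 with miRNA sequences fitted alone, where the call was lost (adjusted p = 0.11). In miR-30e-5p of 22 nt it was 5.50 (adjusted p = 0.000944), and with total counts it was 2.03 (adjusted p = 0.123) and with miRNA sequences fitted alone 0.64 (adjusted p = 0.613), the call being lost in both. Of all tested sequences 39.6%, and of mature miRNA sequences 85.7%, were called in the same direction. The listing asks for counts in the oxidized methyltransferase libraries, so the count of members is partly set by it.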

How the results depend on the processing

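In oxidized RNA, 15 of 15 members outside miR-30a were higher with the methyltransferase, and 2 when miRNA sequences were fitted alone. The interaction called 15 members, 2 with miRNA sequences alone and 9 with total counts. On oxidation with the methyltransferase 0 members rose, and 2 did with miRNA sequences alone. Between 6 and 10 fell in the settings tried, beside 9. In non-oxidized RNA 0 members were lower, and 1 by the DESeq2 Wald test. Among arm ratios, 1 was called higher and 1 to 2 when a library was left out. None was called lower, but 1 with the most abundant sequence of each arm and 1 with the replicate block, miR-30c in both cases (-1.62 with the block, adjusted p = 0.0352). The block changed no other count by over 1.5 times. The labels give same-numbered libraries nothing in common beyond the number. Their deviations from group means over 2481 sequences correlated by 0.561 between the 2 non-oxidized groups and by -0.0104 to 0.144 in the other 5 pairs of groups.

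Signs turned in members that had not passed the test, except miR-30e-5p of 22 nt in oxidized RNA, at -0.30 with miRNA sequences alone. On oxidation with the methyltransferase, miRNA sequences alone gave 0.11 for miR-30c-5p, 0.059 for miR-30b-3p of 21 nt and 0.96 for miR-30e-3p of 22 nt, which was 0.45 with total counts and 0.35 with upper-quartile scaling. In non-oxidized RNA, miRNA sequences alone and total counts gave 0.43 and 0.26 for the late-starting miR-30a-3p, 0.38 and 0.20 for its 21 nt form, 0.27 and 0.11 for miR-30c-1-3p of 20 nt, 0.22 and 0.008 for its 21 nt form, 0.32 and 0.15 for miR-30b-3p of 21 nt, 0.54 and 0.34 for its 22 nt form, and 0.31 and 0.13 for miR-30e-3p of 22 nt. The 22 nt miR-30b-3p ran from -0.69 to 0.33 when a library was left out, the highest without non-oxidized control replicate 2, and was 0.15 without non-oxidized methyltransferase replicate 1. DESeq2 size factors gave -0.029 for the 22 nt miR-30a-3p, as did its Wald test. Beyond the scaling itself, the cause was not tested.

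Oxidized control libraries were the shallowest, and with 2 libraries per group each value rests on few counts where a form was lost.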
